A study of Homo sapiens with 16 samples.

Results

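The comparison described here set 48 h of risperidone against 6 h of risperidone in the human neuroblastoma line SK-N-SH, and so followed what changed after the first hours of exposure. It used 8 of the 16 arrays of the series, the 4 titled for 10 µM at 48 h and the 4 titled for 10 µM at 6 h. The arrays were chosen by title alone. Cells had grown for 48 h to about 95% confluence before the drug was added, in medium with 10% serum, and total RNA was hybridised to Human Genome U219 arrays. Both groups had received the same dose, so what separated them was the length of exposure and, with it, the time in culture near confluence. No untreated arrays matched for time were used here, and exposure and time in culture cannot be told apart. The other groups were 4 arrays at 24 h, which were used to ask whether a gene stood between its 2 end values, and 4 untreated arrays, whose protocol gives them the solvent DMSO at no more than 1% of the volume and whose harvest time is not given. Levels of untreated cells are set beside some results and entered no test.

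Risperidone, given as an antipsychotic, is an antagonist at receptors for dopamine and serotonin. Neuroblastoma cells derive from the sympathoadrenal lineage, and this line is known for a mixture of adrenergic, neuroblast-like cells and flat mesenchymal ones. Cells sense fuel, amino acids, sterols, misfolded protein and growth factors through separate transcriptional programmes whose target genes are well described. The genes below are ordered by those programmes.

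DBH and TFAP2B, markers of the adrenergic lineage, were high at both times, whereas tyrosine hydroxylase (TH) was much lower, as given below. DBH, the enzyme that makes noradrenaline, lay between 11.55 and 12.38 on the log2 scale in the 8 arrays, and TFAP2B, a transcription factor of the adrenergic state, between 11.99 and 12.48. The markers of endothelium and leukocytes averaged between 3.44 and 3.81 in every one of the 8 arrays, near the lowest mean of a tested gene, 3.65. Those of Schwann cells and glia averaged 3.78 to 3.95, those of melanocytes 3.86 to 4.02 and those of epithelium 4.18 to 4.36. Fibroblast markers were higher on average, at 7.05 to 7.48, but differed widely. At 6 h COL3A1 averaged 10.51 and PDGFRA 10.12, whereas DCN averaged 3.86 and POSTN 3.18. Array medians lay between 4.53 and 4.58. Pearson correlations over tested genes were 0.998 to 0.999 within the 6 h arrays, 0.997 to 0.999 within the 48 h arrays and 0.993 to 0.995 between the groups. No pair of arrays shared more than 4.55% of its values. Replicates are named as biological, but nothing says that they came from separate cultures, and p-values therefore measure only the spread among these arrays, which may be technical. All values are log2 RMA values of bulk RNA, in which fewer cells of a type and less RNA per cell cannot be told apart. Every difference below is 48 h minus 6 h unless another is named, with its limma standard error after ±, and n = 4 arrays per group throughout.

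Of 13680 genes tested, 2184 were higher at 48 h and 2228 lower (limma, Benjamini-Hochberg adjusted p under 0.05), which is 16% and 16.3% of the genes and 32.3% together. The counts of every gene list below are to be read beside these shares. Most of the called differences were small. The median size of a called difference was 0.28 on the log2 scale, the deciles of all differences were -0.25 and 0.27, and the median of all genes was -0.005. A change of at least 1.5-fold was called for 216 genes in the upward direction and 140 in the downward one, and a change of at least 2-fold for 37 and 21. Only falls reached 4-fold, in TXNIP, SMAD6 and ARRDC4, and there were 3 of them. When the mean of all probe sets of a gene was taken in place of the brightest probe set, the counts past 1.5-fold were 119 and 87. The 4 arrays of one time lay wholly above or below those of the other in 33% of the tested genes.

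**Figure D1:**
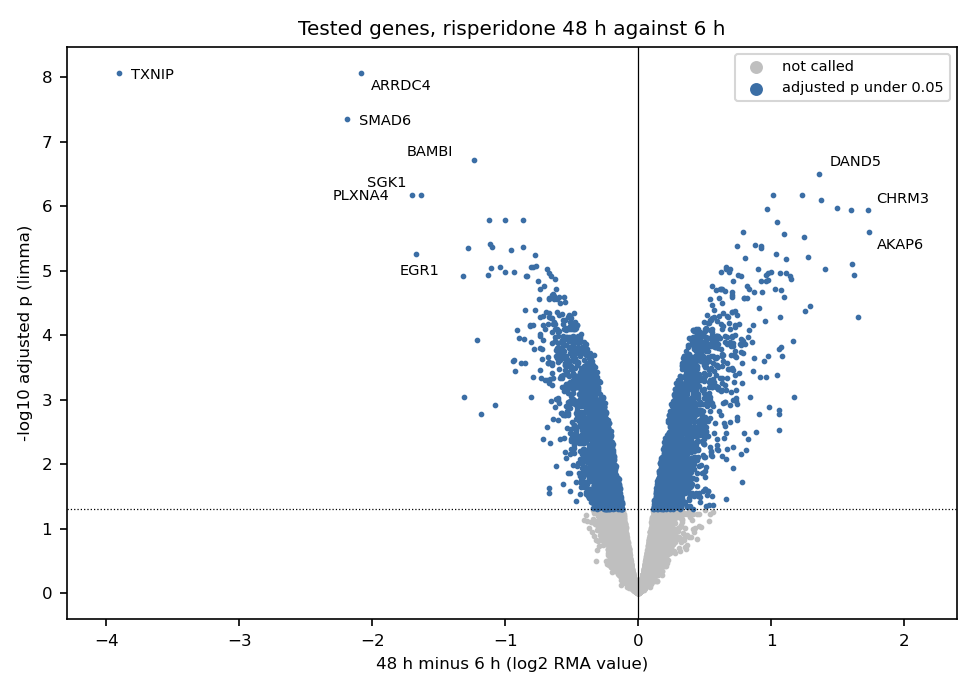
Each point is 1 of the 13680 tested genes, with the 48 h minus 6 h difference of its log2 RMA value across and the negative log10 of the limma adjusted p upward. The dotted line is an adjusted p of 0.05. TXNIP, ARRDC4 and SMAD6 stand far to the left, and no gene rises as far as these fall.

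The arrays at 24 h showed when the changes came. A gene that changed equally before and after 24 h would stand at 24 h at the midpoint of its 6 h and 48 h values. The part from 24 to 48 h is longer than the part from 6 to 24 h. A gene moving at a constant rate would thus lie somewhat short of the midpoint at 24 h, which leans the measure towards late changes. In a limma fit of the 12 treated arrays, 24 h lay above that midpoint in 948 genes, 6.93% of those tested, and below it in 835 genes, 6.1%. With equal groups this contrast is orthogonal to the 48 h minus 6 h difference, although both use the same arrays at 6 and 48 h. Among genes called higher over the span, 631 were below the midpoint at 24 h, meaning that most of the rise came after 24 h, 54 were above it and 1499 were not called either way. Among genes called lower, 619 were above the midpoint, 22 below and 1587 not called. Of the 216 genes with a called rise of at least 1.5-fold, 107 were late by this measure and 10 early. Of the 140 falls of that size, 77 were late and 4 early. The count of genes off the midpoint, 1783 in all, was 1079 without 24 h array 2 and 1048 without 24 h array 3.

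The deepest falls included genes whose control regions are well known, and the stretch upstream of 3 of them is shown because it holds motifs of factors known to control these genes. SMAD6 and PLXNA4, which fell further than EGR1, are not shown. TXNIP encodes an arrestin-like protein that restrains glucose uptake and binds thioredoxin, and its relative ARRDC4 is known for the same response to glucose through the transcription factors MLXIP and MLX. EGR1 is an immediate early transcription factor that serum response factor controls through CArG boxes. The sequences are the 250 bases before the RefSeq start (GRCh38.p14), 5′ to 3′ on the strand of the gene, at chr1:145996580-145996829 (minus strand) for TXNIP, chr15:97960453-97960702 (plus strand) for ARRDC4 and chr5:138465229-138465478 (plus strand) for EGR1. Capitals mark a pair of CACGNG motifs 5 bases apart in TXNIP, a CACGTG in ARRDC4 and 2 CArG boxes in EGR1.
TXNIP: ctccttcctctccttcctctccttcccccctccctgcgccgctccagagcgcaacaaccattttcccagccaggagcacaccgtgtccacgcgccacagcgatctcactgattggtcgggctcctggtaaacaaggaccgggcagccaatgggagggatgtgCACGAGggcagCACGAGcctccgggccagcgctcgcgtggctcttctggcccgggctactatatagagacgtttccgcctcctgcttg
ARRDC4: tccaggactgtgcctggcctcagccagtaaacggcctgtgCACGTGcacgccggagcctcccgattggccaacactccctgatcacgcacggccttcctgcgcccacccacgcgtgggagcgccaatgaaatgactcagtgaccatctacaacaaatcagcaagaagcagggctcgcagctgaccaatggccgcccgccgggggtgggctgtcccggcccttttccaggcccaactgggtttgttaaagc
EGR1: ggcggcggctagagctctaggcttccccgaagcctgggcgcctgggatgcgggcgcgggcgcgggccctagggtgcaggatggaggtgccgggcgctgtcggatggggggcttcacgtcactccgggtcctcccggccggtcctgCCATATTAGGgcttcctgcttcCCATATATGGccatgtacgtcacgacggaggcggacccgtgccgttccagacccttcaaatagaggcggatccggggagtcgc
Counted from the start, the pair in TXNIP begins at -88, the motif in ARRDC4 at -210, and the CArG boxes in EGR1 at -105 and -83. Over windows of 250 bases before to 50 bases after the start, searched on both strands, 11147 of the tested genes had a sequence. Such a pair of CACGNG was found in 17 of them (0.15%), a CACGTG in 12.2% and a CArG box in 1.61%. The share with CACGTG was 13.8% among genes called higher and 11.6% among genes called lower, and the share with a CArG box was 1.61% and 1.57%. Among genes called with a change of at least 1.5-fold, CACGTG was in 11 of 172 higher (6.4%) and 10 of 116 lower (8.62%), and a CArG box in 4 (2.33%) and 3 (2.59%). Of 16 immediate early genes with a window, only EGR1 held a CArG box (6.25%). The pair and the CArG box were added to the search after the values had been seen. A match in a window is a description and not a shown binding site.

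TXNIP had the largest fall of any gene. Its 6 h arrays read 10.25, 10.30, 10.32 and 10.28, its 24 h arrays 10.15, 10.17, 10.11 and 10.23, and its 48 h arrays 6.22, 6.22, 6.65 and 6.43. The 2 end groups were separated by more than 3 units, while the 24 h arrays stayed close to the 6 h level. The fall was -3.91 ± 0.09, or 15-fold (limma, adjusted p = 8.63e-09), and 24 h stood off the midpoint (adjusted p = 1.70e-08). All 4 other probe sets of the gene fell, by -4.02 to -2.95. Untreated cells averaged 9.98. ARRDC4 followed the same course, with 6 h arrays at 8.71, 8.61, 8.65 and 8.74 and 48 h arrays at 6.63, 6.59, 6.58 and 6.56. It averaged 8.53 at 24 h, fell by 2.09 ± 0.05 (adjusted p = 8.63e-09), and its other probe set changed by -2.16. ARRDC3, another arrestin of the same family, went the other way. Its 6 h arrays read 7.40, 7.30, 7.07 and 7.29, its 48 h arrays 8.36, 8.41, 8.41 and 8.33, and the rise was 1.11 ± 0.07 (adjusted p = 6.49e-06). Both of its other probe sets rose, by 0.55 and 0.64. Of the 11 tested members of the list of TXNIP relatives and glucose sensors, 3 rose and 5 fell, with a median of -0.14. With the probe sets of each gene averaged, 2 rose and 3 fell. MLX, the partner of the glucose-sensing factor, rose by 0.28 ± 0.05 (adjusted p = 0.00196).

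**Figure D2:**
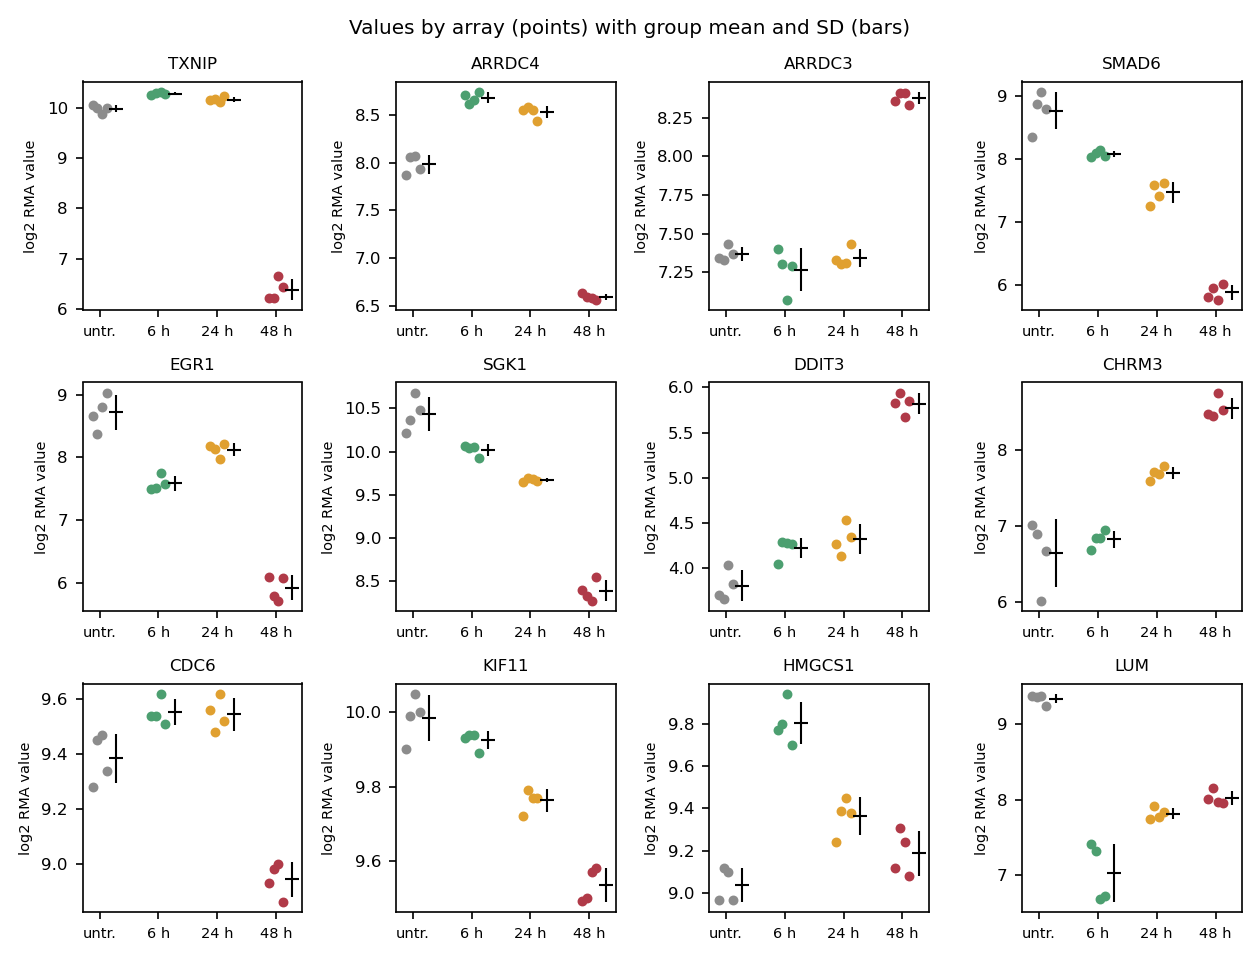
Log2 RMA values of 12 genes in each of the 16 arrays (points) for untreated cells and 6, 24 and 48 h of risperidone, with group means and SD as bars; each panel has its own vertical axis. TXNIP, ARRDC4, EGR1, DDIT3, ARRDC3 and CDC6 change mainly after 24 h, whereas CHRM3, KIF11 and HMGCS1 move in both parts of the span.

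Several antagonists and targets of bone morphogenetic protein (BMP) signalling fell, and so did the glucocorticoid-induced kinase gene SGK1. SMAD6, an inhibitor of the pathway that BMP itself induces, read 8.03, 8.09, 8.13 and 8.05 at 6 h and 5.81, 5.95, 5.76 and 6.01 at 48 h. Its fall was -2.19 ± 0.06 (adjusted p = 4.40e-08), but its other probe sets changed only by -0.40 and 0.01. BAMBI, a decoy receptor, read 9.77, 9.74, 9.72 and 9.68 at 6 h and 8.5, 8.48, 8.52 and 8.46 at 48 h, a fall of -1.24 ± 0.04 (adjusted p = 1.93e-07). ID3, an inhibitor of helix-loop-helix factors and a direct BMP target, fell by 0.46 ± 0.05 (adjusted p = 0.000122), and its other probe sets changed by -0.56 and -0.50. The homeobox gene MSX2 fell by 1.12 ± 0.06, with its other probe set at -0.18. GREM1, a secreted BMP antagonist, fell by 1.31 ± 0.20 (adjusted p = 0.000909); its 6 h arrays were spread, at 7.72, 7.40, 6.79 and 6.82, yet all lay above the 48 h arrays, which ranged from 5.62 to 6.10. Of 17 tested genes of the TGF-beta and BMP response, 6 fell and 3 rose, and the median was 0.002. SGK1, whose product controls ion transport and cell survival, averaged 10.02 at 6 h, 9.67 at 24 h and 8.39 at 48 h. Its fall was -1.63 ± 0.07 (adjusted p = 6.84e-07), with all 3 other probe sets between -1.69 and -1.61. From the same glucocorticoid list, KLF15, a factor that glucocorticoids induce, rose by 0.47 ± 0.06 (adjusted p = 0.000241), and NR3C1, the receptor itself, rose by 0.44 ± 0.08 (adjusted p = 0.0028).

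Immediate early genes were called lower more often than higher, and EGR1 had the deepest fall among them. EGR1 read 7.49, 7.52, 7.76 and 7.58 at 6 h, between 7.97 and 8.21 at 24 h, and 6.10, 5.79, 5.71 and 6.08 at 48 h. The 24 h arrays were thus the highest of the 3 treated groups and the 48 h arrays the lowest, with no overlap between any pair of times. The fall over the span was -1.67 ± 0.10 (adjusted p = 5.47e-06), 24 h stood off the midpoint (adjusted p = 1.59e-06), and the 5 other probe sets ranged from -2.06 to 0.04. Untreated cells averaged 8.72. Of 23 tested immediate early factors, 9 fell and 2 rose, against 16.3% and 16% of all genes, and 6 of the 23 stood above the midpoint at 24 h. FOSL2, an AP-1 subunit, fell by 0.74 ± 0.09 (adjusted p = 0.000351) and the zinc finger gene KLF6 by 0.48 ± 0.05 (adjusted p = 0.00012). Of 17 genes that feed back on ERK signalling, 6 fell and 4 rose. DUSP2, a nuclear phosphatase of MAP kinases, fell by 0.93 ± 0.11 and the ERK-induced factor ETV5 by 0.43 ± 0.04, whereas DUSP4 rose by 0.48 ± 0.05 and the Sprouty inhibitor SPRY2 by 0.41 ± 0.04 (limma, adjusted p between 9.53e-05 and 0.000241 for the 4 genes). MYC fell by 0.20 ± 0.05 (adjusted p = 0.0172), a call that was lost without the second 6 h array (adjusted p = 0.0516). MYCN averaged 8.24 at 6 h and 8.10 at 48 h (adjusted p = 0.327).

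DDIT3, which encodes the pro-apoptotic factor CHOP, rose late. Its 6 h arrays read 4.05, 4.29, 4.28 and 4.27, its 24 h arrays 4.27, 4.14, 4.53 and 4.35, and its 48 h arrays 5.83, 5.94, 5.67 and 5.85. The rise was 1.60 ± 0.07, or 3.03-fold (adjusted p = 1.13e-06), and its other probe set rose by 1.27. Yet most genes that ATF4, the factor upstream of DDIT3 in the integrated stress response, is known to induce were lower at 48 h. Of 24 tested, 15 fell and 3 rose, with a median of -0.33 beside -0.005 for all genes. SLC7A5, the large neutral amino acid transporter, read between 8.0 and 8.12 at 6 h and between 7.16 and 7.29 at 48 h. It fell by 0.86 ± 0.05 (adjusted p = 4.31e-06), and its other probe set stood at -0.03. PHGDH, the first enzyme of serine synthesis, fell by 0.61 ± 0.05, and the mitochondrial serine hydroxymethyltransferase SHMT2 fell by 0.67 ± 0.06, with its 3 other probe sets between -0.71 and -0.62 (adjusted p = 4.38e-05 and 4.55e-05). The median member of the ATF4 list stood at -0.002 at 24 h against 6 h and at -0.34 at 48 h against 24 h. Of 19 aminoacyl-tRNA synthetases, 7 fell and 3 rose, and 5 rose without 48 h array 4. MARS1, which charges methionine tRNA, fell by 0.50 ± 0.05 (adjusted p = 0.00013), while its 4 other probe sets ranged from -0.51 to 0.19.

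The chaperones of the endoplasmic reticulum, which the unfolded protein response controls, did not follow DDIT3. Of 20 tested, 1 rose and 4 fell (5% and 20%), with a median of -0.009. Beside these and the following counts, 16% of all tested genes rose and 16.3% fell. Of the 20, 2 fell without 48 h array 1 or 2, and 2 rose without 48 h array 4. Of 17 heat shock chaperones and co-chaperones, 8 fell and 1 rose, with a median of -0.13, and the 1 rise was lost without 6 h array 3 or 4 or 48 h array 1, 2 or 4. HSPA1B, a stress-induced form of HSP70, read 9.54, 9.35, 9.40 and 9.54 at 6 h and 8.78, 8.89, 8.85 and 8.79 at 48 h, a fall of -0.63 ± 0.06 (adjusted p = 6.34e-05). HSPA1A, its near-identical copy, fell by 0.47 ± 0.05 (adjusted p = 0.000109). Probes of one can bind transcripts of the other, so these are not independent observations. DNAJB1, the HSP40 partner, fell by 0.41 ± 0.05 and the co-chaperone BAG3 by 0.43 ± 0.07 (adjusted p = 0.000458 and 0.00157). The motif GAANNTTC, which heat shock factors bind, was present in the windows of 11 of these 17 genes (64.7%). It was in 6.81% of all tested genes with a window, 6.05% of those called higher and 6.35% of those called lower. The list was made of heat shock genes, so its share is a description and says nothing about the falls. Among antioxidant genes of the NRF2 response, 6 of 18 fell and 1 rose. Catalase (CAT) fell by 0.59 ± 0.05 (adjusted p = 4.88e-05), and GCLM, a subunit of the enzyme that starts glutathione synthesis, by 0.50 ± 0.04 (adjusted p = 5.52e-05). The glutaredoxin gene GLRX, which is not on that list, fell by 1.32 ± 0.09 and its 2 other probe sets by -1.19 and -1.09. Of 12 genes of metallothioneins and metal handling, 2 rose and 4 fell, with a median of -0.011 and differences up to 0.37; 1 rose without any 1 of the 8 arrays, and 2 fell with probe sets averaged. Metallothioneins bind zinc and copper, and of these MT1F fell by 0.64 ± 0.08 (adjusted p = 0.000385), and MT2A averaged 10.35 and 10.11 (adjusted p = 0.116, and 0.00328 without 48 h array 4). Of 19 p53 targets, 9 fell and 2 rose. DDB2, a DNA repair factor, fell by 0.55 ± 0.04, and SESN2, which both p53 and ATF4 induce, by 0.68 ± 0.06, while the secreted stress factor GDF15 rose by 0.70 ± 0.07 (limma, adjusted p = 3.04e-05, 6.67e-05 and 0.000106).

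Most of the tested cell cycle genes were lower at 48 h. Of 24 genes of DNA replication and the G1/S transition, 20 fell and 0 rose (limma, and 20 and 0 at an unadjusted p under 0.05), with a median of -0.33. With probe sets averaged, 20 fell and 1 rose. CDC6, which loads the replicative helicase, read 9.54, 9.54, 9.62 and 9.51 at 6 h and 8.93, 8.98, 9.0 and 8.86 at 48 h. It averaged 9.54 at 24 h and fell over the span by 0.61 ± 0.05 (adjusted p = 2.76e-05). The ribonucleotide reductase subunit RRM2 fell by 0.56 ± 0.04, the helicase subunit MCM6 by 0.58 ± 0.05 and cyclin E1 (CCNE1) by 0.50 ± 0.05 (adjusted p between 2.55e-05 and 0.000155), and every one of their other probe sets fell as well. The median member of the list changed by 0.009 from 6 to 24 h and by -0.35 from 24 to 48 h, and 14 of the 24 stood above the midpoint at 24 h, against 6.93% of all genes. Of 24 mitosis genes, 16 fell and 0 rose (limma; 18 and 0 at an unadjusted p under 0.05), with a median of -0.25, and the drop was spread over the span, at -0.15 from 6 to 24 h and -0.08 from 24 to 48 h. None of the 24 stood above the midpoint at 24 h and 5 stood below it. KIF11, a spindle motor, read 9.93, 9.94, 9.94 and 9.89 at 6 h, averaged 9.76 at 24 h and read 9.49, 9.50, 9.57 and 9.58 at 48 h (fall of -0.39 ± 0.04, adjusted p = 0.000156). The checkpoint kinase BUB1B fell by 0.36 ± 0.05, the kinase AURKB by 0.38 ± 0.06 and survivin (BIRC5) by 0.37 ± 0.06 (adjusted p between 0.000365 and 0.001). The proliferation antigen MKI67 fell by 0.30 ± 0.10 (adjusted p = 0.0426), a call that was lost when any of the 6 h arrays or the first or second 48 h array was left out (adjusted p up to 0.111). Its 48 h arrays split into 8.83 and 8.84 against 9.20 and 9.25. Among histone genes whose transcripts follow DNA replication, 6 of 13 fell and 0 rose (limma; 8 and 0 at an unadjusted p under 0.05), with H2BC12 at -0.74 ± 0.07 (adjusted p = 9.53e-05). H2AC20, which is among the largest falls of all genes, fell by 1.13 ± 0.08. Histone genes are near copies of each other, so probes can be shared between them. CDKN1C, an inhibitor of cyclin-dependent kinases, rose by 0.43 ± 0.05 and its 3 other probe sets by 0.45 to 0.56 (adjusted p = 0.000271), while 3 of the 17 genes on its list rose and 3 fell.

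**Figure D3:**
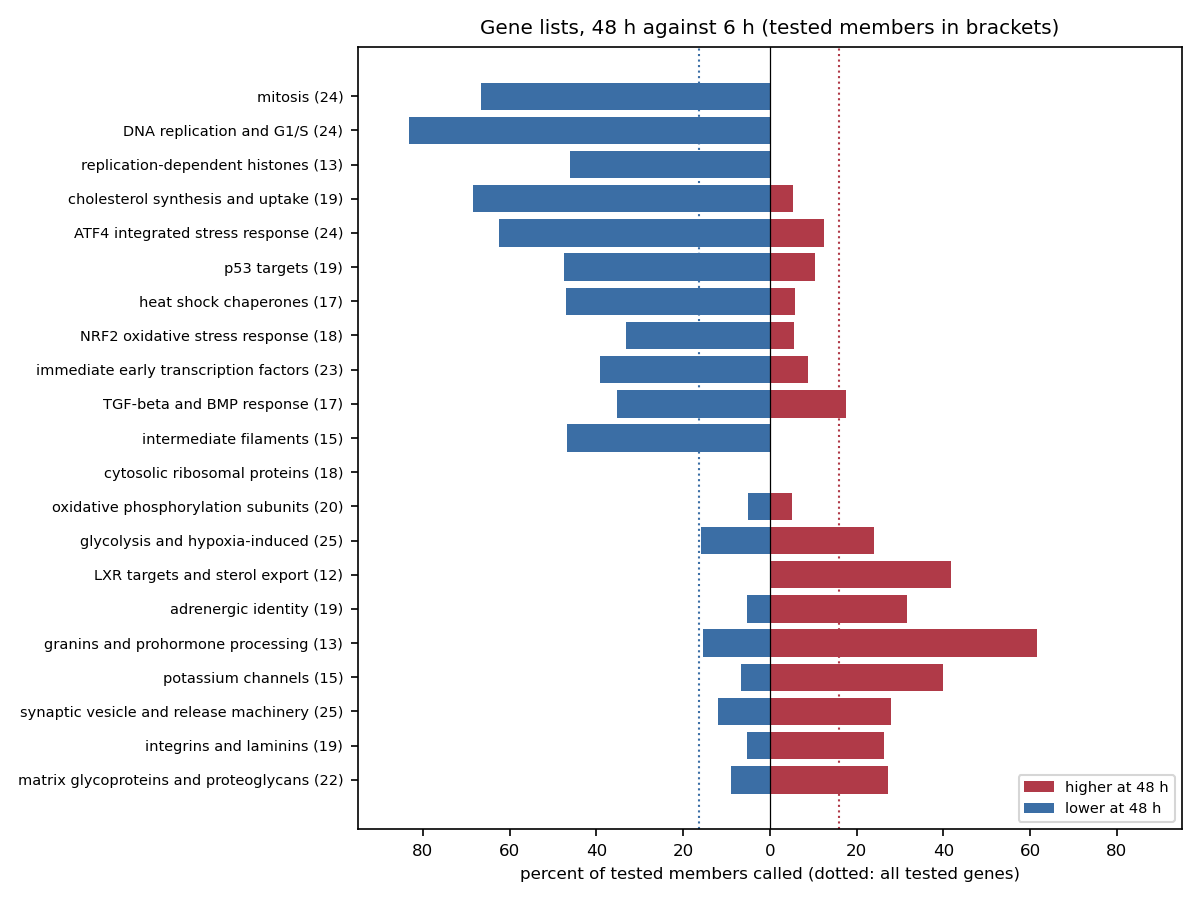
Percent of the tested members of 21 gene lists called higher (red, to the right) or lower (blue, to the left) at 48 h than at 6 h, with the percent over all tested genes as dotted lines and the number of tested members in brackets. Cell cycle, sterol synthesis and stress lists extend to the left, granins and potassium channels to the right, and ribosomal proteins show no call.

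Sterol genes fell throughout the span. Of 19 tested genes of cholesterol synthesis and uptake, 13 fell and 1 rose, with a median of -0.33. The median change over the list's members was similar in both parts, at -0.16 from 6 to 24 h and -0.18 from 24 to 48 h. At 24 h, 0 members stood above the midpoint and 2 below it. HMGCS1, the enzyme that commits acetyl units to the mevalonate pathway, read 9.77, 9.80, 9.94 and 9.70 at 6 h, averaged 9.37 at 24 h and read 9.12, 9.31, 9.24 and 9.08 at 48 h. Its fall was -0.61 ± 0.07 (adjusted p = 0.000167), and its other probe set changed by -0.91. At 48 h it lay near the untreated mean of 9.04. INSIG1, which holds the sterol sensor in the endoplasmic reticulum, fell by 0.48 ± 0.06, squalene epoxidase (SQLE) by 0.36 ± 0.04 and the isomerase EBP by 0.40 ± 0.05, and all of their other probe sets fell too (adjusted p between 0.000275 and 0.000419). Fatty acid synthesis moved less, with 5 of 15 lower and 1 higher and a median of -0.04, and 0 were higher without 6 h array 1 or 48 h array 3. Targets of the liver X receptors, which respond to oxidised sterols and export cholesterol, went the opposite way, with 5 of 12 higher and 0 lower (limma; 5 and 2 at an unadjusted p under 0.05, 5 and 1 with a robust, trended eBayes, and 1 lower without 6 h array 1 or 4). ABCG1, a sterol exporter, read 6.30, 6.24, 6.10 and 6.34 at 6 h, averaged 7.01 at 24 h and read 7.02, 7.24, 7.08 and 7.14 at 48 h, a rise of 0.88 ± 0.07 (adjusted p = 2.15e-05) that was mostly complete at 24 h. Untreated cells averaged 4.94. Its 4 other probe sets ranged from -0.04 to 1.10. MYLIP, which targets the LDL receptor for breakdown, rose by 0.54 ± 0.06 and both of its other probe sets with it (adjusted p = 0.000148). NPC2, the carrier of cholesterol out of lysosomes, rose by 0.36 ± 0.07 (adjusted p = 0.00331). Of 23 lysosomal genes, 2 rose and 3 fell, and 1 rose without 6 h array 2 or 4 or 48 h array 3.

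**Figure D4:**
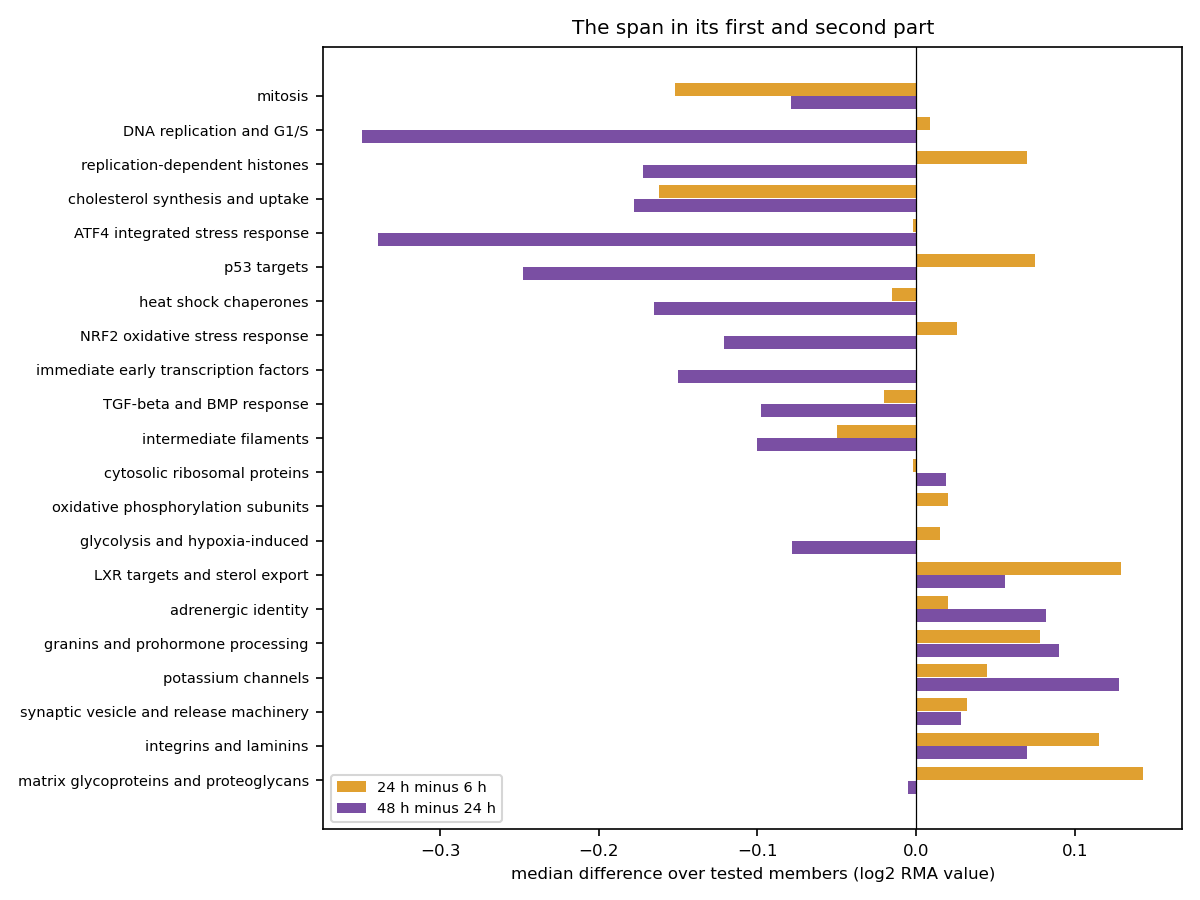
Median difference over the tested members of the same 21 lists from 6 to 24 h (orange) and from 24 to 48 h (purple), in log2 RMA units. DNA replication and ATF4 targets drop in the second part, at -0.35 and -0.34, while mitosis and cholesterol synthesis drop in both.

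Few genes of the ribosome and of respiration were called. Of 18 cytosolic ribosomal protein genes, 0 were called in either direction (limma, and also 0 at an unadjusted p under 0.05). With a robust, trended eBayes or without 48 h array 4, 1 was higher, and with probe sets averaged 1 rose and 1 fell. Differences in the main fit lay between -0.02 and 0.11, and 0 members were off the midpoint at 24 h. The largest, RPL5, averaged 12.92 at 6 h and 13.03 at 48 h (limma, adjusted p = 0.151). Of 20 subunits of oxidative phosphorylation, 1 rose and 1 fell (0 fell without 6 h array 2, 3 or 4 or 48 h array 1), with UQCRC2, a subunit of complex III, at 0.26 ± 0.04 (adjusted p = 0.00163). With probe sets averaged, 2 of these subunits rose and 2 fell. Of glycolytic and hypoxia-induced genes, 6 of 25 were higher and 4 lower, and VEGFA, a growth factor for blood vessels, rose by 0.36 ± 0.06 (adjusted p = 0.00128). The count of 4 that fell was 2 without 48 h array 1 or without 6 h array 2, 3 or 4.

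Several lists of nerve cell genes held more rises than falls, where 16% of all tested genes rose and 16.3% fell. Others did not. Transmitter and amino acid transporters held 2 rises and 5 falls among 11, and microtubule and neurite growth genes 4 of each among 23. CHRM3, the M3 muscarinic acetylcholine receptor, had the second largest rise of any gene. It read 6.68, 6.84, 6.84 and 6.95 at 6 h, 7.6, 7.71, 7.69 and 7.79 at 24 h, and 8.48, 8.45, 8.76 and 8.53 at 48 h. The groups did not overlap and the steps were alike, so that 24 h did not leave the midpoint (adjusted p = 0.963). The rise was 1.73 ± 0.08, or 3.31-fold (adjusted p = 1.13e-06), and no other probe set of the gene was bright enough to compare. Untreated cells averaged 6.64. Of 11 acetylcholine receptors and enzymes 4 rose and 1 fell, and 2 fell without 6 h array 3 or 48 h array 3. DBH read 11.55, 11.62, 11.69 and 11.82 at 6 h and 12.25, 12.20, 12.18 and 12.38 at 48 h and rose by 0.58 ± 0.07 (adjusted p = 0.000224). GCH1, which makes the cofactor of tyrosine hydroxylase, rose by 0.44 ± 0.05 (adjusted p = 0.000112), while tyrosine hydroxylase itself (TH) averaged 5.18 and 5.00 (adjusted p = 0.0961, and 0.0226 without 6 h array 3). MAOB, an enzyme of amine breakdown, fell by 0.51 ± 0.06 (adjusted p = 0.000323). The catecholamine list as a whole held 3 rises and 5 falls among 15, and 3 of each with probe sets averaged.

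Among granins and prohormone processing genes, which serve the dense-core vesicles of neuroendocrine cells, 8 of 13 rose and 2 fell, with a median of 0.20. SCG5, a chaperone of a prohormone convertase, rose by 0.45 ± 0.05 and chromogranin B (CHGB) by 0.38 ± 0.04, with the 3 other probe sets of CHGB between 0.07 and 0.48 (adjusted p = 0.00016 and 0.000217). CADPS, which primes these vesicles for release, fell by 0.57 ± 0.05 (adjusted p = 5.82e-05). Synaptic vesicle genes showed 7 rises and 3 falls among 25, and 1 fall without 6 h array 1 or 4 or 48 h array 1, 2 or 3. With probe sets averaged they showed 8 rises and 5 falls. The vesicle protein SV2C rose by 0.78 ± 0.08 and its relative SV2A fell by 0.51 ± 0.05 (adjusted p = 0.000145 and 7.18e-05). Potassium channels rose in 6 of 15 cases and fell in 1, and with probe sets averaged 4 rose and 1 fell. KCNH1, a voltage-gated channel, read 6.92, 7.13, 7.14 and 7.2 at 6 h and 8.26, 8.03, 8.19 and 8.18 at 48 h, a rise of 1.07 ± 0.07 (adjusted p = 1.07e-05), beside an untreated mean of 5.24. The microtubule protein gene MAPT rose by 0.70 ± 0.05 (adjusted p = 2.15e-05), with 4 other probe sets from -0.04 to 0.43. GFRA3, a co-receptor of the kinase RET, rose by 1.11 ± 0.07 (adjusted p = 1.09e-05) and its other probe set by 0.71. Of 19 genes of adrenergic identity, 6 rose and 1 fell, and with probe sets averaged 7 rose and 3 fell. INSM2 rose by 0.61 ± 0.05, TFAP2B by 0.43 ± 0.04 and the receptor kinase ALK by 0.44 ± 0.05 (adjusted p = 2.67e-05, 0.000108 and 0.000138). PLXNA4, a semaphorin receptor, fell by 1.70 ± 0.07 (adjusted p = 6.84e-07), with its other probe sets at -0.52 and 0.17. Intermediate filament genes, of neurons and other cells, fell in 7 of 15 cases and rose in 0 (limma; 8 and 1 at an unadjusted p under 0.05, and 1 rose without 6 h array 1). The heavy neurofilament gene NEFH fell by 0.47 ± 0.09 (adjusted p = 0.0031) and lamin A (LMNA) by 0.41 ± 0.08 (adjusted p = 0.004).

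Of 14 tested monoamine receptors, the family that risperidone binds, 1 rose and 0 fell (limma; 1 and 2 at an unadjusted p under 0.05, and 1 of each with a robust, trended eBayes; 1 fell without 6 h array 4 or 48 h array 1). The one that rose was HTR1E, which couples serotonin to inhibitory G proteins. It read 8.39, 8.35, 8.30 and 8.58 at 6 h and 9.06, 8.91, 9.07 and 8.93 at 48 h, a rise of 0.59 ± 0.07 (adjusted p = 0.000226), beside 5.70 in untreated cells. DRD2, the dopamine receptor, read between 5.44 and 5.55 at 6 h and between 5.44 and 5.57 at 48 h (difference of -0.01 ± 0.05, adjusted p = 0.897).

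Genes of the mesenchymal state and its matrix moved in both directions. The median over genes of the untreated minus 6 h difference was 1.27 for the mesenchymal list and 2.04 for the matrix glycoprotein list. LUM, a collagen-binding proteoglycan, read 7.41, 7.32, 6.68 and 6.72 at 6 h, between 7.74 and 7.91 at 24 h, and 8.01, 8.15, 7.97 and 7.95 at 48 h. The 6 h arrays split into a higher and a lower pair, and all lay below the later arrays. The rise was 0.99 ± 0.16 (adjusted p = 0.00129), and untreated cells averaged 9.33. The integrin subunits ITGB5 and ITGA1 rose by 0.96 ± 0.07 and 0.98 ± 0.11 (adjusted p = 1.17e-05 and 0.000209), the laminin chain LAMC1 by 0.41 ± 0.07 (adjusted p = 0.00188), and COL3A1, a fibrillar collagen, by 0.51 ± 0.12 (adjusted p = 0.0111). Of 19 integrins and laminins, 5 rose and 1 fell, and of 22 matrix glycoproteins, 6 rose and 2 fell. Among all tested genes, 16% rose and 16.3% fell. Rises of matrix glycoproteins ran from 4 without 6 h array 2 or 3 to 9 with array weights. With probe sets averaged, 5 of them rose and 0 fell. The basement membrane collagen COL4A1 fell by 0.48 ± 0.07 (adjusted p = 0.000629). The transcription factor SNAI2, a driver of the mesenchymal state, fell by 0.84 ± 0.06 (adjusted p = 1.21e-05), SNAI1 by 0.47 ± 0.05 (adjusted p = 0.000178) and the filament gene VIM by 0.25 ± 0.06 (adjusted p = 0.00848), whereas ZEB1 rose by 0.38 ± 0.04 (adjusted p = 0.000195). Of 22 genes of mesenchymal identity, 7 fell and 4 rose (31.8% and 18.2%), beside 16.3% and 16% of all tested genes. FN1 averaged 7.06 at 6 h and 6.86 at 48 h (adjusted p = 0.197) beside 10.36 in untreated cells, and CCN2 averaged 3.17 and 3.09 (adjusted p = 0.554) beside 8.79. Both treated CCN2 means lay below the lowest mean of a tested gene, 3.65. CCN2 passed the filter on dim genes only through its untreated level, and a further fall could not have been seen. IGFBP5, a secreted binder of insulin-like growth factors, fell by 1.10 ± 0.06 (adjusted p = 4.30e-06), with its 4 other probe sets between -2.48 and -0.04. Over 7 fibroblast markers, all tested, the mean level was 7.05 to 7.28 in the 6 h arrays and 7.31 to 7.48 in the 48 h arrays, beside 8.62 to 8.75 in untreated ones; 2 were called higher and 1 lower. POSTN, also among the 7, averaged 3.18 at 6 h and 3.32 at 48 h, below 3.65. It passed the filter on dim genes only through arrays of the other groups. LUM and COL3A1 are among these markers, and the part of a changed cell mixture in the matrix genes was not tested.

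The remaining genes at the top of the ranking had no list in common, and their probe sets often differed. The demethylating enzyme gene TET1 read 7.86, 7.77, 7.79 and 7.82 at 6 h and 9.17, 9.08, 9.16 and 9.34 at 48 h. It rose by 1.38 ± 0.06 (adjusted p = 7.90e-07), and its other probe set rose by 1.25. DAND5, a secreted antagonist of nodal, rose by 1.37 ± 0.05 (other probe set 1.12), and GPCPD1, which splits glycerophosphocholine, by 1.61 ± 0.10 (other probe set 0.73). The Hippo kinase gene LATS1, at 3.77 to 4.06 at 6 h and 5.34 to 5.46 at 48 h, rose by 1.5 ± 0.07, and the adhesion molecule FLRT1 by 1.63 ± 0.11 from a similar low level (adjusted p = 1.06e-06 and 1.17e-05). AKAP6, an anchor of protein kinase A, had the largest rise of all genes, 1.74 ± 0.09, with 6 h arrays between 5.80 and 5.84 and 48 h arrays between 7.28 and 7.79 (adjusted p = 2.53e-06). Its other probe set changed by -0.07. ANKRD44, a regulatory subunit of a protein phosphatase, rose by 1.66 ± 0.15 and its other probe set by 0.13. DMXL1 rose by 1.25 ± 0.07 with other probe sets at -0.07 and 0.22. For WDR33, a component of the polyadenylation machinery, the probe set used rose by 1.28 ± 0.08 (adjusted p = 6.12e-06), while 5 of the 6 others were called lower and the mean over all of them changed by -0.002. AVL9, ZNF844, PTGER3 and SNAPC3 rose by 1.23 to 1.41 on the probe set used. Among the falls, KCTD12, an auxiliary subunit of GABA-B receptors, fell by 1.12 ± 0.05 and all 4 of its other probe sets with it, and DHRS2, CRTAC1 and ODAPH fell by -1.28 to -1.18. Over the whole comparison, 230 genes with a called change of at least 1.5-fold had another bright probe set. In 164 of them another was called the same way and in 16 another was called the opposite way.

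**Figure D5:**
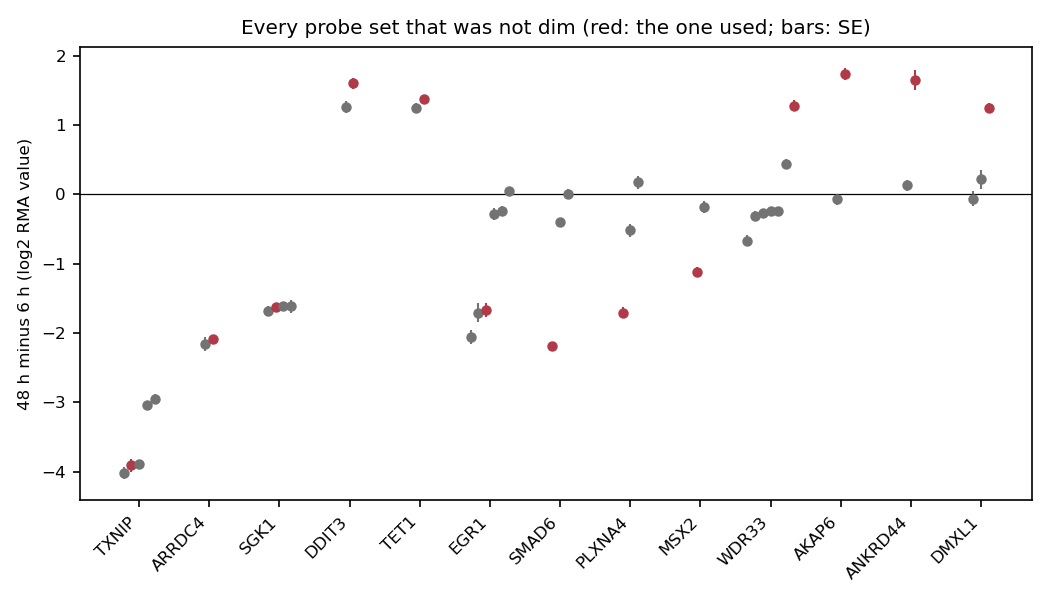
The 48 h minus 6 h difference of every probe set that was not dim for 13 genes, in log2 RMA units with standard errors, with the probe set used in red. All probe sets of TXNIP, ARRDC4, SGK1, DDIT3 and TET1 lie on one side of 0, while those of WDR33 lie on both and the other probe set of AKAP6 stands at -0.07.

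Control transcripts gave a measure of RNA quality. The difference between the 3′ and 5′ probe sets of beta-actin, which grows as RNA is degraded, was 2.22 ± 0.19 (SD, n = 4) at 6 h and 1.90 ± 0.17 at 48 h (exact two-sided permutation test, p = 0.0571, where 70 arrangements allow no p below 0.0286). That of GAPDH was 0.085 ± 0.017 and 0.100 ± 0.014 (exact permutation p = 0.4). The part of this difference in the gene results was not tested.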

How the data were processed

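The deposited values are log2 expression per probe set, processed with RMA per the submitters' processing notes; the software version is not given in the sources used here. They carry 2 decimals, and array number limits precision. Of 18239 genes with a single-symbol probe set, the brightest set over 16 arrays stood for the gene, and the dimmest 25% were left out. The main comparison was limma 3.58.1 (R 4.3.3; lmFit, eBayes, Benjamini-Hochberg) on 8 arrays; the 24 h midpoint contrast used 12. Scripts were tested on simulated data. Alternatives were other filters, scalings, probe set rules, fits with more arrays, array weights, a replicate block and leaving out each array. Named genes were the 15 largest called rises and the 15 largest falls whose groups do not overlap, up to 4 members of each list by smallest p, and a few fixed genes; 1 item is not reported here. Members, lists and rules were chosen with earlier results of these data known, and the CArG box and paired CACGNG searches after values were seen. Promoters are from RefSeq (GRCh38.p14).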

Additional observations from a re-analysis of the deposited data

Results flagged for a closer look

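In 8 of 222 groups of 4 arrays of the genes named above (3.6%), 1 array stood far from the other 3, and chance alone gives about 1 in 20 such groups. The gap to the nearest array, as a share of the group's range, was 0.917 for DDIT3, whose 6 h array 1 read 4.05 against 4.27 to 4.29, and 0.857 for SGK1, whose 6 h array 4 read 9.92 against 10.04 to 10.06. It was 0.909 for DDB2 (6 h array 1, 7.47 against 7.36 to 7.37), 0.867 for HSPA1A (6 h array 2, 11.27 against 11.40 to 11.42) and 0.90 for FOSL2 (48 h array 1, 5.05 against 5.41 to 5.45). The 48 h array 4 stood apart for INSM2 (0.909; 10.84 against 10.94 to 10.95), ITGA1 (0.863; 5.72 against 6.16 to 6.23) and MYLIP (0.833; 7.52 against 7.40 to 7.42).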

How the results depend on the processing

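At an adjusted p under 0.01, 1331 genes were higher, 1228 lower and 677 off the midpoint at 24 h. With a gene's probe sets averaged, 119 and 87 genes passed 1.5-fold. WDR33 changed sign (-0.0018), since its probe sets went both ways. Why its probe sets differed was not tested. Leaving out 1 array at a time gave 1810 to 2210 genes higher, 1756 to 2410 lower, 199 to 240 and 134 to 156 past 1.5-fold, and 1048 to 2125 off the midpoint (1079 without 24 h array 2). A replicate block gave 2107 higher and 2154 lower. The deviations of same-numbered arrays from their group means correlated at -0.099, 0.062, 0.114 and 0.177. Only the deviations of 6 h arrays 3 and 4 correlated best with their own number, so the numbers were not taken as pairs. Of 2092 recomputed gene values, 2078 kept their side of the threshold and, for genes called in the main fit, their direction. A call was lost in 8 (in MKI67 and MYC) and gained in 5 (in MT2A, TH and RPL5). The direction of genes not called in the main fit was not compared. Of 33 list medians, 9 changed sign under some alternative. Higher calls made up 47.4% to 52.2% of all calls over these alternatives.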
